A study of Mus musculus with 2 samples.

Results

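The mucins, their folding and packing partners and the antimicrobial proteins of the uterine lumen were examined in the pregnant mouse uterus. The tissue was dissected on day 8 from the stretches between implantation sites. The set held 10 genes of the 12393 that had a probe set of their own on the array, namely Muc5b, Muc1, Muc4, Agr2, Tff3, Wfdc2, Wfdc18, Pigr, Ltf and Lcn2. Muc5b, Agr2 and Wfdc18 were included because their signal was higher in the Cbs null sample, and the other 7 were included by function. The values of all 10 genes are therefore given as a description of these samples, with no test.

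The labels describe 2 samples, both from females aged 4 months on the mixed genetic background C57Bl/6J X OLA129. One has the genotype control and the other the genotype Cbs null. Cbs encodes cystathionine beta-synthase, the enzyme that joins homocysteine to serine. Each sample was total RNA on 1 array, and the labels say neither which Cbs alleles the control animals carried nor whether a sample came from 1 animal or a pool. With 1 array per genotype there is no replicate check on any difference below, and genotype cannot be told apart from any other difference between the samples.

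Mucins are heavily glycosylated proteins that cover epithelia. Gel-forming mucins are secreted and build mucus, whereas membrane mucins stand on the apical cell surface. Mucus cells fold mucins with dedicated isomerases and release small trefoil peptides alongside them. The same epithelia carry antibodies into the lumen and secrete protease inhibitors and iron-binding proteins that limit microbes. In the uterus the surface mucin layer is regulated by ovarian steroids and is classically lowered when the lining becomes receptive to the embryo.

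The sequence upstream of the transcription start was taken from RefSeq (assembly GRCm38.p6) for the 8 of the 10 genes that matched by symbol. Muc5b and Tff3 were not matched. Shown here are the 250 bases before the start, 5′ to 3′ on the gene's strand, for both matched genes among those picked for a higher signal (Agr2 and Wfdc18), for the other genes at least 2-fold higher (Muc1 and Ltf), and for Wfdc2, whose signal was nearly equal in both samples. Capitals mark a match, on either strand, to the core of the TATA box (TATAAA), to the repeat unit of the estrogen response element (GGTCA) or to the GC box of Sp family factors (GGGCGG), and the Agr2 window holds no such match.
Agr2, chr12:35992675-35992924, + strand: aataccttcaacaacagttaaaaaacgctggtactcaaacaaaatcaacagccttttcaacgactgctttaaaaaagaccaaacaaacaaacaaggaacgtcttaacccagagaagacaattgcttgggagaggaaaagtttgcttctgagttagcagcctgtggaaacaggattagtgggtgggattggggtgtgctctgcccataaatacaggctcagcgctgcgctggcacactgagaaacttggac
Wfdc18, chr11:83708754-83709003, + strand: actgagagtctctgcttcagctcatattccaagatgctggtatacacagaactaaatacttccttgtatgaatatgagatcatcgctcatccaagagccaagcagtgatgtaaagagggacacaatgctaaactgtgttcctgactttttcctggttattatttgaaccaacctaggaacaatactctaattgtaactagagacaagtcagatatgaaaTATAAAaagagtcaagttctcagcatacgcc
Muc1, chr3:89228806-89229055, + strand: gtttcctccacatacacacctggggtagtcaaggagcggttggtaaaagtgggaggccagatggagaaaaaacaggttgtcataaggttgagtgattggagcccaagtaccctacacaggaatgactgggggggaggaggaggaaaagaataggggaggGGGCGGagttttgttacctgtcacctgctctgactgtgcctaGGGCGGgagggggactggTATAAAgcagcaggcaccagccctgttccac
Ltf, chr9:111019042-111019291, + strand: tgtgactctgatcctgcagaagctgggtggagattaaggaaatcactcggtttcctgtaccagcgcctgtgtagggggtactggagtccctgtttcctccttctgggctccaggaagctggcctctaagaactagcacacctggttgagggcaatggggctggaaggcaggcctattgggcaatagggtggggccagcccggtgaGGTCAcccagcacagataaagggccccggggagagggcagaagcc
Wfdc2, chr2:164562465-164562714, + strand: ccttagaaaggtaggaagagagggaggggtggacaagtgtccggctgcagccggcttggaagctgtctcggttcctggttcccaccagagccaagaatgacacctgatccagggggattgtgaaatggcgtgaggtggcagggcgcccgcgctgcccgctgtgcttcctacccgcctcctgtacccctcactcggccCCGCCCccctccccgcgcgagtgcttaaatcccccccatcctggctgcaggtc
The letters differed widely between these windows. GC content was 38.4% for Wfdc18, 44.4% for Agr2, 54.8% for Muc1, 59.2% for Ltf and 64.8% for Wfdc2, and the median of the 8 windows was 52.6% against 52.4% over all 32851 promoters of the same length. The TATA box core stood in 3 of the 8 windows, those of Wfdc18, Muc1 and Muc4, and in 12.4% of all promoters. The repeat unit of the estrogen response element stood in the windows of Ltf and Pigr and in 35.2% of all promoters, and the full palindromic estrogen response element, with a spacer of any bases between its arms, stood in 0 of the 8 and in 0.0639% of all. The GC box stood in 3 windows, those of Muc1, Wfdc2 and Lcn2, and in 32.7% of all promoters. The C/EBP site core TTGCNNAA was found for Ltf and Lcn2 (9.56% of all promoters) and the E-box CACGTG for Pigr (6.02% of all). The STAT site TTCNNNGAA and the FOXA site core TGTTTAC were found in 0 of the 8, beside 7.02% and 3.17% of all promoters. Each motif was searched on both strands, and matches of different motifs were counted separately. A match is a run of letters and not a shown binding site, and no motif was shared by all the genes that were at least 2-fold higher.

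Values are linear signal units as deposited, with both arrays at one overall level (medians 74.55 in control and 75.6 in Cbs null). A signal under 43.2 (the 40th percentile over all values of the table) was treated as too weak to order and was raised to that floor, and a fold against a raised value is a lower bound, written as at least. The word measured is used for a gene above the floor in at least 1 sample. Ratios are those of the Cbs null over the control signal. Among 8407 measured genes, 0.797% had a Cbs null signal higher by 2-fold or more, 0.714% were lower by as much, and the median log2 ratio was 0.02. The technical SD, from log2 ratios of separate probe sets of one gene, was 0.24 if the weaker of the pair lay below 4 times the floor and 0.18 for brighter pairs, which covers measurement within the arrays and not animals. Cbs itself had signals of 79.8 (control) and 42.6 (Cbs null), at least 1.85-fold lower, and its weaker probe set lay below the floor in both.

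Of the 10 genes, 8 were measured. Muc5b, Agr2, Wfdc18, Ltf and Muc1 were at least 2-fold higher in the Cbs null sample, 0 were lower by 2-fold or more, and Pigr, Lcn2 and Wfdc2 lay under 2-fold. Since the genes were chosen with these values known, nothing is read from 5 of 8 against the 0.797% over all genes. Muc1 counted as measured through the Cbs null sample alone, so its direction was fixed by the floor. The median log2 ratio of the 8 was 1.46, and without the 3 genes picked for their higher signal it was 0.90, with 2 of the remaining 5 at least 2-fold higher.

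**Figure D1:**
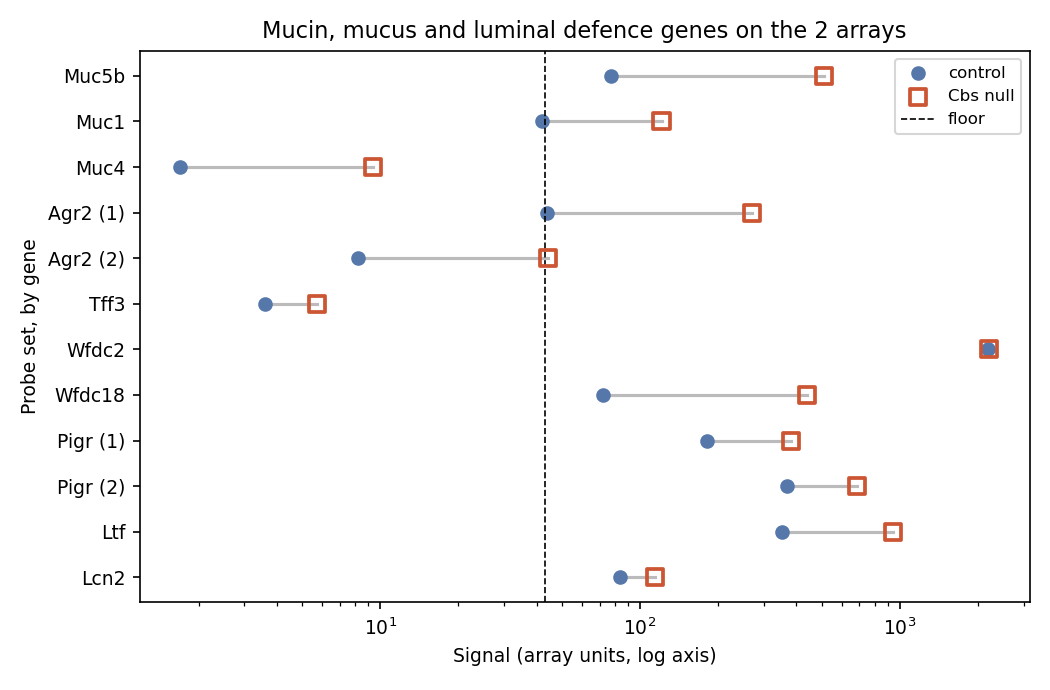
Signal of the 12 probe sets of the 10 genes on a log axis, with filled circles for the control sample, open squares for the Cbs null sample (1 array each) and a dashed line at the floor of 43.2. Wfdc2 has both symbols on top of each other at 2192.7 and 2211.9, Muc4 and Tff3 lie left of the floor in both samples, and every other gene has its square to the right of its circle.

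Among the mucins, the secreted and the membrane forms were measured unevenly. Muc5b, the gel-forming mucin of airway and cervical mucus, read 77.3 in control and 512.8 in Cbs null tissue, 6.63-fold higher. Its log2 ratio of 2.73 was the highest of the 7942 genes above the floor in both samples, and it rested on 1 probe set. Muc1, the membrane mucin of the uterine luminal surface, read 41.8, just under the floor, and 121.1, at least 2.80-fold higher. With the floor raised to the 60th percentile of the signals, its log2 ratio was 0.0091 and the 2-fold difference was lost. Muc4, a large membrane mucin that binds ERBB2, read 1.7 and 9.4, below the floor in both samples, so its values have no order.

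Agr2 and Tff3 belong to the making of mucus rather than to the gel itself. Agr2, the endoplasmic reticulum isomerase that gel-forming mucins need for folding, read 43.7 and 269.4 in its brighter probe set, 6.16-fold higher. That control signal stands barely above the floor, so the fold depends on a weak value. The other Agr2 probe set read 8.2 and 44.4, which crosses the floor in the Cbs null sample by so little that the bound is at least 1.03-fold. The second probe set thus gives no usable size, and its direction was fixed by the floor. For Agr2 the mean over the pair gave a log2 ratio of 1.33 in place of 2.62. With the floor at the 60th percentile it was 1.16. Tff3, the trefoil peptide of goblet cells, read 3.6 and 5.7 and was not measured in either sample.

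The pair of WAP domain genes, which encode small cysteine-rich proteins related to protease inhibitors, had unlike values. Wfdc18 read 72.0 in control and 439.8 in Cbs null tissue, 6.11-fold higher. Wfdc2, the epithelial secretory protein also called HE4, read 2192.7 and 2211.9, 1.01-fold apart, a difference whose sign turned when the arrays were centred on the median ratio. The log2 ratios were 2.61 for Wfdc18 and 0.01 for Wfdc2. Wfdc18 was picked for its higher signal, so this contrast is no test. Wfdc18 rested on 1 probe set of the _s_at type, which can detect more than 1 transcript. Wfdc2 was bright in both samples and is itself a gene of uterine epithelium.

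Antibody transport and iron binding were represented by Pigr, Ltf and Lcn2. Pigr, the receptor that carries polymeric immunoglobulin A across epithelium, had its pair of probe sets side by side, 367.0 and 686.1 in the brighter and 180.9 and 380.3 in the other. These were 1.87-fold and 2.10-fold higher, log2 ratios of 0.90 and 1.07, so they differed by less than the technical SD but fell on either side of 2-fold. Ltf, lactoferrin, the iron-binding protein that estrogen induces in mouse uterine epithelium, read 351.6 and 944.1, 2.69-fold higher. Lcn2, the siderophore-binding lipocalin, read 84.0 and 114.0, 1.36-fold higher. The Lcn2 log2 ratio of 0.44 was less than 2 technical SDs from equal signal, whereas those of Pigr and Ltf were larger than that.

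By log2 ratio among the 7942 genes above the floor in both samples, the order of the genes was Muc5b at rank 1, Agr2 at rank 2, Wfdc18 at rank 3, Ltf at rank 19, Pigr at rank 75, Lcn2 at rank 502 and Wfdc2 at rank 4082. Muc5b, Agr2 and Wfdc18, at 2.73, 2.62 and 2.61, did not differ from each other by as much as the technical SD. Muc1 has no place in the order because its control signal was under the floor. The pattern nearest to Muc5b, measured as distance over the 2 log2 signals, was that of Wfdc18 (0.24 log2 units away) and then Cuedc1 (0.67), and those nearest to Agr2 were Krt13 (0.70) and Gpx2 (0.85). For Wfdc18 the nearest were Muc5b (0.24) and Cuedc1 (0.57). With 2 samples, such likeness says only that the signals of 2 probe sets were alike.

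**Figure D2:**
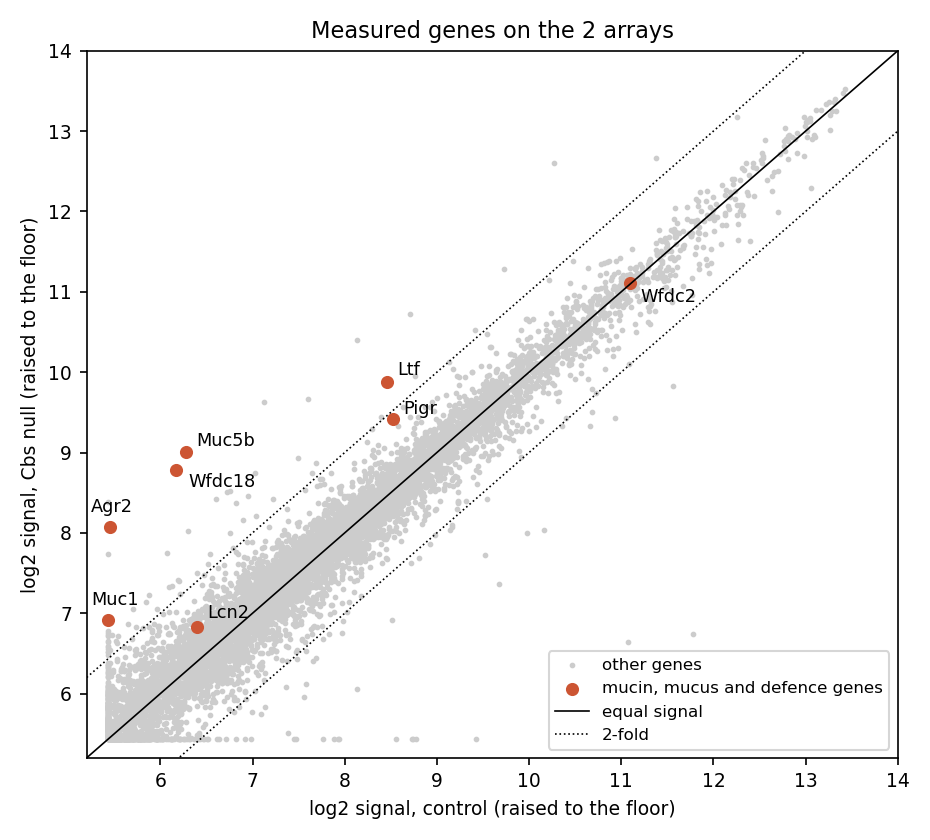
Log2 signal in the control sample (horizontal) and the Cbs null sample (vertical) of the 8407 measured genes, values under the floor raised to it, 1 array each. Grey points are other genes, orange points the 8 measured mucin, mucus and defence genes, the solid line is equal signal and the dotted lines are 2-fold, with Muc5b, Wfdc18 and Agr2 well above the upper dotted line, Ltf and Muc1 above it, and Wfdc2 on the line of equal signal.

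The wider mucus machinery was described from lists chosen by function, with earlier results of these data known. Each count at 2-fold in this and the later lists stands beside 0.797% higher and 0.714% lower over all measured genes. Of 18 other mucins and mucin-like genes, 12 had a probe set of their own and 5 were measured, 1 of them at least 2-fold higher. That gene was Ovgp1, the oviductal mucin-like glycoprotein, which read 105.8 and 362.6, 3.43-fold higher. It rested on 1 probe set of the _s_at type, without which 0 of the list were at 2-fold. The others lay between -0.41 for the membrane mucin Muc20 and 0.13 for Cd164, a sialomucin of many cell types. Muc5ac (2.9 and 2.8), Muc13 and Muc15 lay below the floor in both samples. The list median was -0.16, beside 0.02 over all measured genes.

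Enzymes that build the sugar chains of mucins were mostly close to equal. Of 20 measured of 30 on the array, 1 was at least 2-fold higher and 0 lower, and the list median was -0.07. The 1 gene was St6galnac2, a sialyltransferase that caps O-linked chains, which read 58.7 and 150.2, 2.56-fold higher, while its second probe set was below the floor in both samples. The higher count of the list was 0 when probe sets were averaged or the floor was at the 60th percentile. C1galt1, the enzyme that extends the first sugar to core 1, read 83.2 and 85.3, and its chaperone C1galt1c1 read 277.9 and 237.4. The sialyltransferase St3gal4 was 1.55-fold lower. The list also held Fut8, a fucosyltransferase that acts on N-linked rather than O-linked chains, which was 1.43-fold lower.

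Genes of the mucus cell and secretory programme had a median of 0.26, and of 15 measured genes 1 was at least 2-fold higher and 0 were lower. Clca1, a secreted protein of goblet cells that was earlier called gob-5, read 148.9 and 342.6, 2.30-fold higher, with its second probe set below the floor in both samples. Averaging probe sets left 0 genes of the list at 2-fold. Tff1, a trefoil peptide like Tff3, read 187.8 and 225.4, and Fcgbp, a mucus component, 167.3 and 209.9. Foxa2, the transcription factor of uterine glands, read 78.8 and 110.5. Klf5, an epithelial transcription factor, was 1.56-fold lower. Of the list, 16 genes were below the floor in both samples, among them Spdef, the goblet cell transcription factor, at 11.7 and 24.6, and Agr3, the close relative of Agr2, at 0.3 and 0.3.

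The other WAP domain genes gave few values. Of 24 written, 10 were on the array and 4 were measured, all under 2-fold, with a median of 0.01. Slpi, the secretory leukocyte protease inhibitor, read 89.4 and 82.1, Wfdc1 read 165.3 and 175.7, and Wfdc15b read 203.9 and 285.4. Wfdc21 was barely above the floor in the control sample at 45.4 and below it in the Cbs null sample at 32.5. At least 2-fold higher signal was seen for 1 WAP domain gene, Wfdc18, of the 6 measured when Wfdc2 is counted. Wfdc18 was picked for that higher signal, so nothing is read from this count.

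Other antimicrobial and luminal defence genes went both ways. Of 14 measured of 37 on the array, 1 reached 2-fold higher, 1 reached 2-fold lower, and the median was 0.34. Ang, the ribonuclease angiogenin, read 44.4 and 106.0, 2.39-fold higher, from a control signal barely above the floor, and the higher count of the list was 0 with a floor at the 60th percentile or with a pseudocount. Sftpd, the collectin surfactant protein D that binds microbes, read 1643.4 and 724.9, 2.27-fold lower. Lysozyme was higher but under 2-fold, at 1.48-fold for Lyz1 and 1.65-fold for Lyz2, which are near copies whose probe sets may share targets. In total 23 genes of the list were below the floor in both samples, defensins and Reg3 genes included.

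The antibody genes linked to Pigr went both ways. Igha, the immunoglobulin A heavy chain, read 5554.3 and 4671.7, 1.19-fold lower, and its other probe sets were 1.28-fold and 1.39-fold lower. Jchain, the joining chain that makes the antibody a ligand of Pigr, read 1996.3 and 1260.8, 1.58-fold lower. Ighm, the heavy chain of immunoglobulin M, which Pigr also carries, read 126.3 and 154.1, 1.22-fold higher in its brightest probe set, but its probe sets disagreed, and the others above the floor ran from 1.48-fold lower to 1.14-fold higher. Sdc1, a cell surface gene of the plasma cell list, was 1.22-fold higher in its brightest probe set. Its other probe sets above the floor in both samples were 1.10-fold lower and 1.06-fold higher. None of the 11 measured genes of the immunoglobulin transport and plasma cell list reached 2-fold, and the median was 0.14. Xbp1, a secretory cell regulator, read 3460.7 and 3769.5.

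Receptors and regulators linked to the 10 genes had a median log2 ratio of 0.09, beside 0.02 over all measured genes. All 25 measured genes of 31 on the array were under 2-fold, with a range from -0.40 for Mmp9 to 0.63 for Il13ra1. Over all measured genes 0.797% were at least 2-fold higher and 0.714% lower, so nothing is read from that count. The transcription factor gene Stat3 read 1015.5 and 1082.4, and Il6st, a cytokine co-receptor gene upstream of it, read 965.1 and 1105.7. Erbb3, a partner receptor of ERBB2, read 167.7 and 250.8. Il13ra1, a receptor chain for the mucus-inducing cytokine IL-13, was 1.55-fold higher in 1 probe set, whereas its other probe sets above the floor in both samples were 1.03-fold and 1.07-fold lower. The estrogen receptor gene Esr1 was below the floor in both samples at 23.9 and 37.9, and the progesterone receptor gene Pgr read 49.1 and 36.8.

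**Figure D3:**
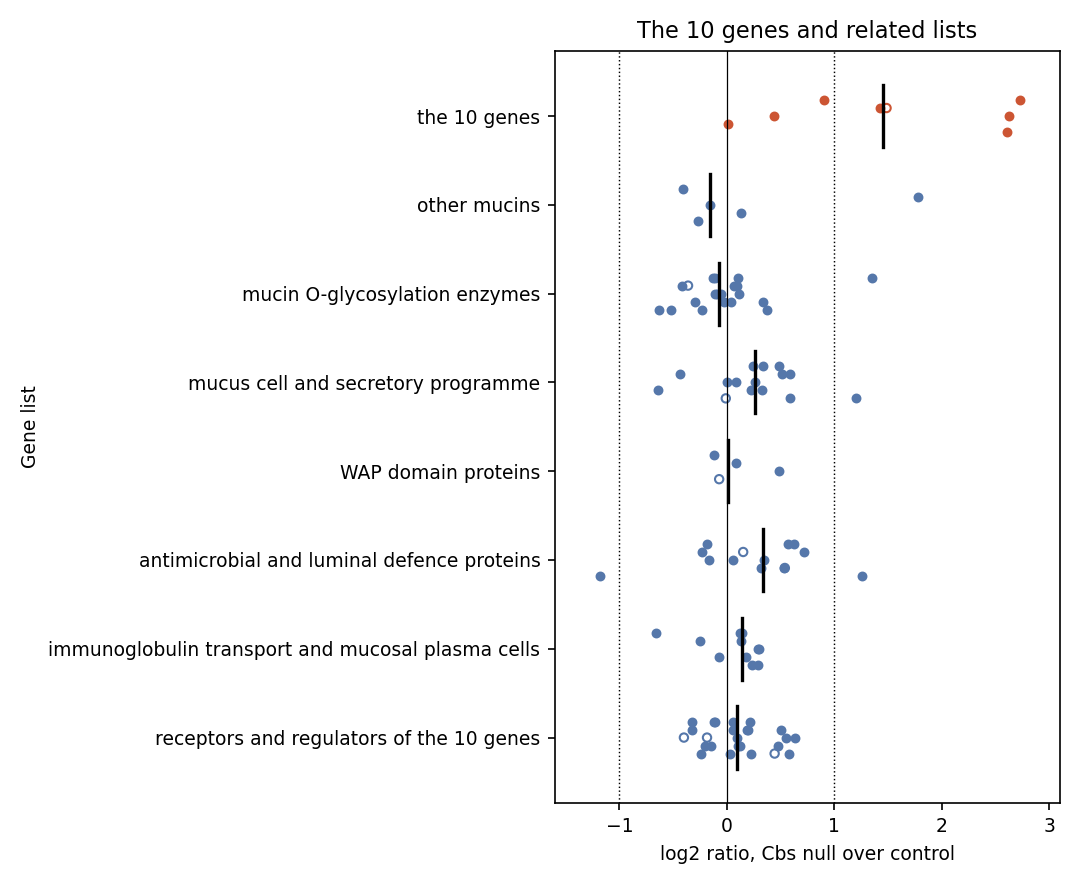
Log2 ratio of Cbs null over control for the measured genes of each list, 1 array each, with a filled point for a gene above the floor in both samples, an open point for a bound, a black bar at the list median and dotted lines at 2-fold. The 10 genes (8 measured) have their median at 1.46, and the 7 related lists have medians between -0.16 and 0.34.

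Markers of several cell types moved with these genes. In whole tissue, more epithelial cells and more RNA per epithelial cell cannot be told apart. Of 24 uterine epithelium markers on the array, all were measured and 23 were higher in the Cbs null sample, with a median of 0.52, beside 53.3% of all measured genes with a ratio above equal signal. Cldn4 and Tspan1 were measured through the Cbs null sample alone, so their direction was fixed by the floor. The marker signals, summed over unlike probe sets, came to 15051 in control and 26222 in Cbs null, and to 7505 and 10427 without Prss28 and Prss29. None was below the floor in both samples, so the labelled tissue carried its epithelial markers. The pan-epithelial gene Epcam was 1.22-fold higher, the cadherin gene Cdh1 1.46-fold, the keratin genes Krt8 and Krt18 1.55-fold and 1.63-fold, and the gland proteases Prss29 and Prss28 1.89-fold and 2.46-fold. Cdh16 was the exception at 1.61-fold lower. Among the 22 markers above the floor in both samples, the log2 ratios ran up to 1.30 for Prss28, and the bound for Tspan1 was 1.32. Ltf stood at 1.43, and Wfdc18, Agr2 and Muc5b at 2.61 to 2.73. Wfdc18, Agr2 and Muc5b were picked for their higher signal, so their place above the markers is no test.

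Set against the epithelial median, the log2 ratios of the genes became 2.21 for Muc5b, 2.10 for Agr2, 2.09 for Wfdc18, 0.97 for Muc1, 0.90 for Ltf, 0.38 for Pigr, -0.08 for Lcn2 and -0.51 for Wfdc2. On that scale 3 of the 8 were at least 2-fold higher. These were the 3 picked for their higher signal, so nothing is read from that count. Wfdc2, nearly equal in raw signal, was below the epithelial median. The part of epithelial content in each gene's difference was not tested.

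Markers of stratified epithelium, which lines the vagina and outer cervix, were few above the floor. Of 22 markers on the array, 9 were measured, all 9 with more signal in Cbs null tissue and 5 by 2-fold or more, with a median of 1.15 and a summed signal of 646 in control and 1509 in Cbs null. The count at 2-fold was 1 with the floor at the 60th percentile and 3 when probe sets were averaged, with medians of 0.83 in both settings. Of the 9, 5 were measured through the Cbs null sample alone, so their direction was fixed by the floor. The other 4 lay above the floor in both samples. For comparison, 53.3% of all measured genes had a ratio above equal signal and 0.797% were at least 2-fold higher. The basal keratin genes Krt5 and Krt14 were 3.29-fold and 2.27-fold higher and Krt13 3.19-fold. From control signals under the floor, Krt15 read 40.7 and 213.5, at least 4.94-fold higher, and Pkp1 read 26 and 95.8, at least 2.22-fold higher. The basal cell regulator Trp63 was below the floor in both samples at 22.3 and 40.4, as was Krt4. Krt6a was below it in the probe set that stood for the gene. Another Krt6a probe set read 8.2 and 84, at least 1.94-fold higher, with its direction fixed by the floor. Muc5b is abundant in cervical mucus, and the part of such tissue in its signal was not tested.

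Ltf and Lcn2 are also stored in neutrophil granules. Leaving these genes out, 13 neutrophil markers were on the array, and 12 of them were below the floor in both samples. S100a8 was measured, in the Cbs null sample alone, at 18.6 and 62.8. S100a9 was below the floor in both samples, at 0.9 and 26.9. The granule genes Elane, Mpo, Camp and Ngp were also below the floor in both samples. The summed signal of the 13 markers was 162.1 in control and 199.4 in Cbs null. The part of neutrophils in the signals of Ltf and Lcn2 was not tested. Macrophage markers, 11 of 13 measured, were all higher with a median of 0.52 and no gene at 2-fold, beside the 53.3% over all measured genes. Aif1 was measured through the Cbs null sample alone, and Lyz2 is among these markers.

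The oviduct and ciliated cell list, which bears on Ovgp1, had 7 of 13 genes measured and a median of 0.16, with Ovgp1 higher, the ciliary gene Tekt2 at least 2.04-fold lower (from 88.2, a difference lost with the floor at the 60th percentile), and Foxj1, the regulator of ciliated cells, below the floor at 2.0 and 2.8. Smooth muscle markers were lower in 11 of 11 measured genes (median -0.35), beside 46.5% of all measured genes, and stromal and endothelial markers had medians of 0.10 and 0.03. None of the smooth muscle, stromal or endothelial markers reached 2-fold.

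**Figure D4:**
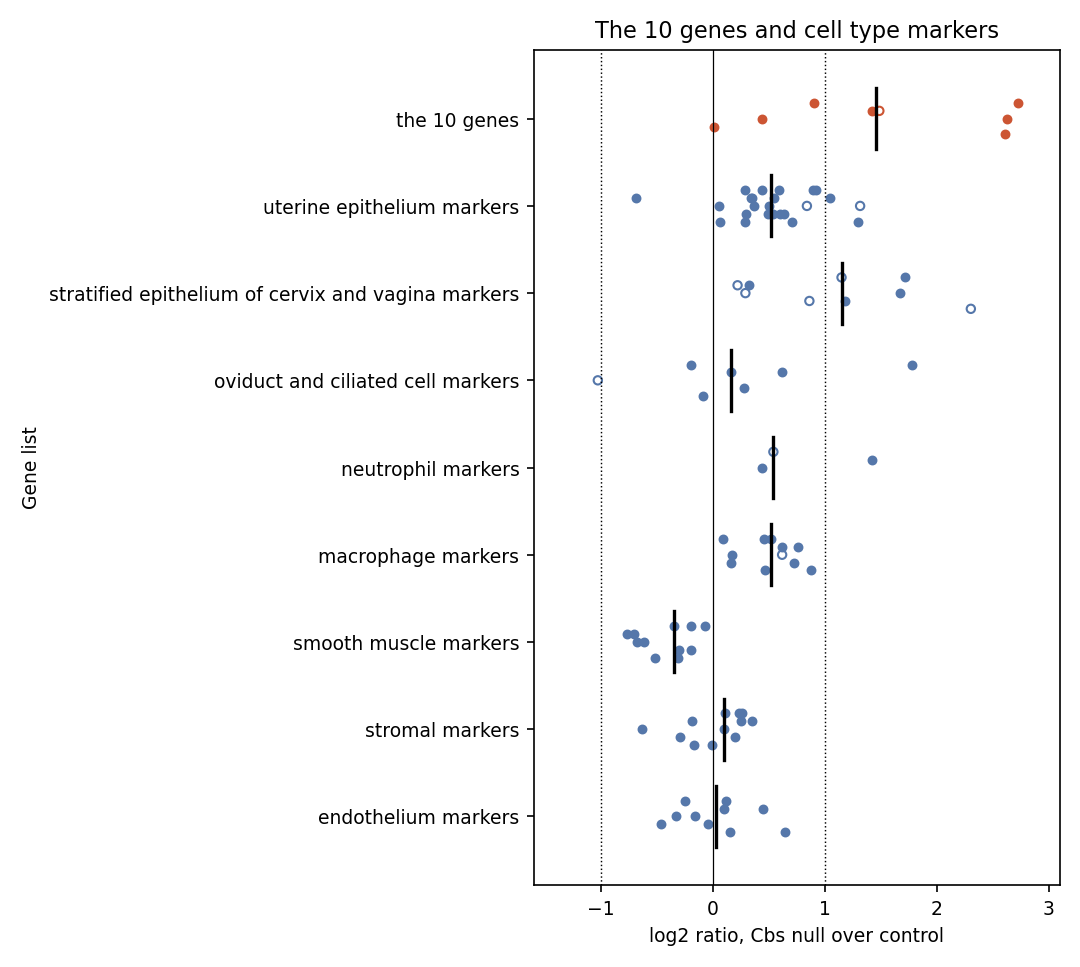
Log2 ratio of Cbs null over control for the 10 genes (8 measured) and for the measured markers of each cell type, 1 array each, with open points for bounds, black bars at medians and dotted lines at 2-fold. The medians run from -0.35 for smooth muscle to 1.15 for stratified epithelium, with 0.52 for uterine epithelium, beside 1.46 for the 10 genes. The neutrophil row, with a median of 0.54, has 3 measured genes, among them Ltf and Lcn2 themselves.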

How the data were processed

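Total RNA was labelled with biotin, 2 microg per sample, per the labels' protocols. The deposited table gives 1 linear intensity per probe set and array, made with GCOS 1.4, per the submitters' processing notes. How the signals were summarised and scaled, and which probe sets were called present, is not stated in the labels. The 2% trimmed means were 200.08 in control and 200.07 in Cbs null, and values were used as deposited.

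Of 22626 probe sets that are not array controls, 20380 have 1 gene symbol in the platform annotation, 691 several and 1555 none, and 20351 matched a RefSeq gene identifier. For each gene the 1-symbol probe set of highest mean log2 signal was used. The floor, the 2-fold size rule and the log2 ratio are described above. The number of arrays limits the precision, and no test was run. The calculation was tested on simulated data.

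The genes and 15 lists were chosen with earlier results of these data known. Named genes were all 10 genes and Cbs, up to 4 list genes at least 2-fold apart or otherwise the 2 of highest signal, and the genes nearest in signal, passing over clone and locus names. Further genes were named after their values were seen. Alternatives were other scalings, lower and higher floors (the 20th and the 60th percentile), a pseudocount of 32, averaging or dropping probe sets, and 1.5-fold and 3-fold rules. Python 3.11.15, numpy 2.4.6 and pandas 2.3.3 were used.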

Additional observations from a re-analysis of the deposited data

How the results depend on the processing

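Direction is no sign of stability for Muc5b, Agr2 and Wfdc18, picked as higher, or for Muc1, whose direction the floor fixed. Wfdc2, nearly equal in both samples, stood at -0.0082 after centring on the median log2 ratio. Under each alternative, 0 were at least 2-fold lower. Sizes that start from weak control signals moved. When weak signals were raised to the 60th percentile, the log2 ratio was 2.09 for Muc5b, 1.87 for Wfdc18, 1.16 for Agr2 and 0.0091 for Muc1, which lost its 2-fold difference there, and the median was 1.16. With a pseudocount of 32 in place of the floor they were 2.32, 2.18, 1.99 and 1.05, and the median was 1.20. Averaging probe sets gave 1.33 for Agr2. Without _s_at, _x_at and _a_at probe sets, Wfdc18 and Lcn2 had no value, and Lcn2 had none at the higher floor. At 3-fold, 3 genes counted as higher. Further settings were chosen after seeing the data. Relative to the uterine epithelium markers the log2 ratios were 2.21 (Muc5b), 2.10 (Agr2), 2.09 (Wfdc18), 0.97 (Muc1), 0.90 (Ltf), 0.38 (Pigr), -0.080 (Lcn2) and -0.51 (Wfdc2). Their median was 0.94, and the 3 genes at least 2-fold higher were those picked for their higher signal. Without Muc5b, Agr2 and Wfdc18 the median was 0.90 and 2 genes were at least 2-fold higher. Over all genes, 67 higher and 60 lower became 242 and 213 under the 20th percentile floor, 30 and 31 under the 60th, 302 and 284 at 1.5-fold, and 16 and 22 at 3-fold. No paired analysis was possible because each group has 1 array and the result comes from no test. Weak signals near the floor set the precision of Agr2 and Muc1.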

Other observations

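Several of the 10 genes lie in clusters of related genes. Many of these relatives had no probe set of their own or lay below the floor, so the clusters cannot be judged as a whole. The 60 nearest protein-coding neighbours were taken, 3 on each side of each gene in RefSeq order. Of these, 24 were measured, 16 were below the floor in both samples and 20 had no probe set of their own. All 24 were under 2-fold, with a median log2 ratio of -0.05. Over all measured genes 0.797% were at least 2-fold higher and 0.714% lower, so nothing is read from that count. Next to Muc5b on chromosome 7 stand Muc5ac, below the floor at 2.9 and 2.8, and Tollip, a regulator of Toll-like receptor signalling, at 247.2 and 208.8. Next to Agr2 on chromosome 12 stand Agr3, below the floor, and Tspan13 at 2951 and 2360. Tff3 on chromosome 17 neighbours Tff2, below the floor, and Tff1 at 187.8 and 225.4. Muc4 on chromosome 16 neighbours Muc20 at 59.3 and 44.6, and Wfdc18 on chromosome 11 neighbours Wfdc21 at 45.4 and 32.5. Fcamr, a receptor for immunoglobulins A and M beside Pigr on chromosome 1, read 2.2 in both samples.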
